A study of Mus musculus with 40 samples.

Results

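The MYC, MAX and MXD network was followed through both mouse T cell experiments of the series, as 10 genes that together decide how E-box sites in promoters are read. The members were Myc, Mycn, Max, Mxd1, Mxd3, Mxd4, Mxi1, Mnt, Mlx and Mga. A gene entered through the array probe sets annotated to it, or to an older alias, and its brightest probe set, by mean signal in that experiment, stood for it. All 10 were measured in the sorted T cell experiment, among 18194 genes. In the ligand experiment 9 were measured, among 17097 genes and Max was not analysed here. Every value below is a log2 signal or a difference of log2 signals, so a difference of 1 is a 2-fold change.

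The sorted T cell experiment has 8 arrays of CD4+ cells from C57Bl/6 mice with a Foxp3GFP reporter. Activated regulatory T cells (Treg, 3 arrays) and resting Treg (3 arrays) were CD45RBlow GFP+, and resting conventional T cells (2 arrays) were CD45RBhi GFP-. All were cultured for 48 h in RPMI with 10% serum, the activated cells with antibodies to CD3 and CD28 and the resting cells with neither. Bone marrow is named as their source in the labels. In each comparison of Treg with conventional T cells, Treg identity and CD45RB level change together and cannot be told apart.

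The ligand experiment has 32 arrays, all of Treg (CD4+ CD45RBlo YFP+) from spleen and peripheral lymph nodes, under plate-bound anti-CD3 (1 µg/mL), anti-CD28 in solution (2 µg/mL) and IL-2 (100 U/mL). To these were added 10 µg/mL of immobilised Sema4a-Ig, a fusion of the neuropilin-1 ligand semaphorin-4a, or of mouse IgG1. The KO mice were Nrp fl/fl crossed to Foxp3-YFP-iCre, which deletes Nrp1 in cells that express Foxp3, and the WT mice carried Foxp3-YFPiCre alone. There were 8 arrays each of KO with Sema4a-Ig, KO with IgG1, WT with Sema4a-Ig and WT with IgG1. WT with Sema4a-Ig replicate 2 is WT by its title and Nrp fl/fl by its genotype label, and was kept in WT by its title.

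MYC is a basic helix-loop-helix leucine zipper factor that binds DNA only as a dimer with MAX, and such dimers activate genes for ribosome biogenesis, nutrient uptake, biosynthesis and cell cycle entry. The MXD proteins, MXI1 and MNT compete for MAX and bring SIN3 and histone deacetylases to the same E-box sites, MGA pairs with MAX as a further repressor, and MLX is a MAX-like partner of some MXD proteins and of the glucose-sensing factors MLXIP and MLXIPL. In T cells MYC is known for its induction by antigen receptor signals and for driving the metabolic switch of activation, while MXD proteins are associated with quiescent and differentiated cells.

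The E-box of this network, CACGTG, is its own reverse complement, so a search of 1 strand covers both. It was looked for in RefSeq promoter windows of GRCm38.p6, which run from 250 bases before to 50 bases after each start site. Of 27025 genes with a window, 2187 (8.09%) held it. Of the members, 9 had a window and 4 held it once. The 4 stretches are shown because the network's own genes carry the letters that its proteins read, with CACGTG in capitals and the rest in lower case.
Mxd4: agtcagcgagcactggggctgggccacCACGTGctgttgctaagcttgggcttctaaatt
Mnt: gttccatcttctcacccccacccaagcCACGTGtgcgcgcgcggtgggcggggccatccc
Mlx: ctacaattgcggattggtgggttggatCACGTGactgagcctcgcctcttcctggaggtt
Max: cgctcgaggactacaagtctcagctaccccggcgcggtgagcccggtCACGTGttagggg
These lie at chr5:34187897-34187956 on the minus strand (Mxd4), chr11:74830774-74830833 on the plus strand (Mnt), chr11:101087223-101087282 on the plus strand (Mlx) and chr12:76962239-76962298 on the minus strand (Max). The first C of CACGTG stood at -219 in Mxd4, -123 in Mnt, -40 in Mlx and -3 in Max, counted from the start site. The windows of Mxd1, Mxd3, Mxi1, Mga and Mycn did not hold these letters. Genes that MYC is known to induce were searched too, where they had a window. CACGTG was in 1 of 8 nucleolar, 3 of 11 metabolic and growth, and 1 of 6 cell cycle genes. From the metabolic ones a further stretch is shown for Ldha, the lactate dehydrogenase subunit of glycolysis, at chr7:46845632-46845691 on the plus strand. This Ldha window held CACGTG 2 times, of which 1 is shown, and another Ldha window held it 0 times.
Ldha: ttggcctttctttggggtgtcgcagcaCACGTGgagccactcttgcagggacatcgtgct
A match is a run of letters in a window and no measure of binding.

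Markers were read before the members. In the sorted cells Foxp3, the lineage factor of Treg, averaged 10.81 in activated Treg and 10.44 in resting Treg, against 4.0 in conventional T cells. In the ligand experiment its probe set averaged 3.48 to 3.61 in the 4 groups, below the highest nonspecific control (3.95), so that array does not show Foxp3, whereas Ikzf2, Ctla4 and Il2ra of the same marker list averaged between 10.21 and 11.25 in the WT groups. Nrp1 averaged 8.75 with Sema4a-Ig and 8.41 with IgG1 in KO, and 8.77 with Sema4a-Ig and 8.40 with IgG1 in WT. These levels check no genotype. Each of the 16 pairs of a Sema4a-Ig and an IgG1 array has the same mean at every probe set, within 6e-05, so differences between genotypes in level had been removed before deposit and only the difference within each pair carries information. No label states whether replicates were separate animals or cultures, and the spread behind each p-value may therefore be technical.

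Myc, the central activator, was the member that differed most between activated and resting Treg. Its log2 signal was 8.31, 8.09 and 8.08 in activated Treg, against 6.63, 6.78 and 4.8 in resting Treg. The groups did not overlap, and resting replicate 3 lay far below its own group. The difference was 2.09 ± 0.46 (SE), a 4.25-fold higher signal in activated Treg, with an adjusted p of 0.100 by limma over all genes. Without resting Treg replicate 3 it was 1.46, with a limma adjusted p of 0.011. With any 1 other Treg array left out it was 2.01 to 2.44, with limma adjusted p from 0.0963 to 0.249.

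Conventional T cells that had received no stimulus held Myc at 8.45 and 8.49. Both arrays were above every Treg array. Resting Treg were 2.40 ± 0.52 below them, at 0.19 of their signal, and this fall passed the threshold (limma adjusted p = 0.0354). Activated Treg differed from conventional T cells by -0.31 ± 0.52 (95% interval -1.49 to 0.88, limma adjusted p = 0.825). The order of the means was conventional T cells (8.47), activated Treg (8.16) and resting Treg (6.07), and the first pair of neighbours did not differ beyond the error of the fit. The call on resting Treg was lost in 4 of the 8 fits without 1 array, with adjusted p values up to 0.246 without conventional T cell replicate 1 and 0.225 without replicate 2. In bulk RNA a lower level in each cell and a smaller share of cells with the transcript cannot be told apart.

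Mxd3, an antagonist expressed in cycling cells in other settings, ran with activation. It stood at 8.69, 7.73 and 8.12 in activated Treg, against 6.95, 6.80 and 6.65 in resting Treg and 5.98 and 6.28 in conventional T cells. The 3 groups formed 3 separate steps with no overlap. Activated Treg were 2.05 ± 0.28 above conventional T cells, a 4.14-fold difference that passed the threshold (limma adjusted p = 0.00283). The difference between activated and resting Treg was 1.38 ± 0.25, with a limma adjusted p of 0.0533. The remaining Mxd3 probe sets gave 0.51 and 0.84 for activated minus resting Treg, the same direction at a smaller size, and 0.85 and 1.35 for activated Treg minus conventional T cells. With the median of the 3 probe sets activated Treg minus conventional T cells was 1.35 with a limma adjusted p of 0.0984, so this call belongs to the brightest probe set. Without conventional T cell replicate 1 the difference between activated Treg and conventional T cells was 1.90 with a limma adjusted p of 0.0502.

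Mxd4, an antagonist linked to differentiated and resting states, separated Treg from conventional T cells and not activated from resting Treg. Its log2 signal was 11.74, 11.72 and 11.45 in activated Treg and 11.43, 11.38 and 11.62 in resting Treg, against 9.37 and 9.53 in conventional T cells. All 6 Treg arrays lay well above both conventional arrays, and the Treg groups overlapped each other. Resting Treg were 2.03 ± 0.17 above conventional T cells (4.07-fold, limma adjusted p = 0.00038) and activated Treg 2.19 ± 0.17 above them (4.55-fold, limma adjusted p = 0.000185). Activated minus resting Treg was 0.16 ± 0.15. Mxd4 has 4 probe sets on this array, and the other 3 gave smaller differences of the same direction, from 0.38 to 1.29 for resting Treg minus conventional T cells and from 0.22 to 1.15 for activated Treg minus conventional T cells. With the median of the 4 probe sets the differences were 0.83 (limma adjusted p = 0.276) for resting Treg and 0.74 (limma adjusted p = 0.279) for activated Treg, so the size and the call belong to the brightest probe set.

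**Figure D1:**
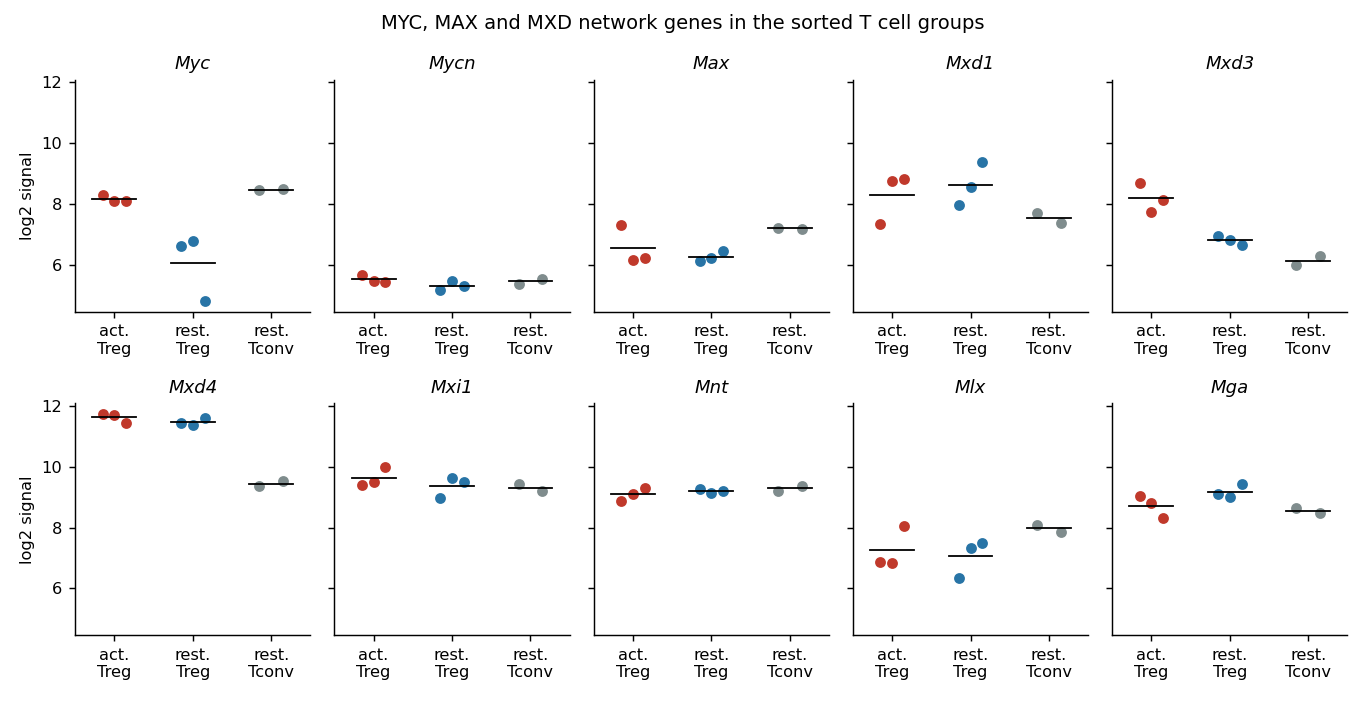
Log2 signal (vertical axis) of each of the 10 network genes in activated Treg (red, 3 arrays), resting Treg (blue, 3 arrays) and resting conventional T cells (grey, 2 arrays); points are arrays and lines are group means. Myc is low in resting Treg, Mxd3 steps down over the 3 groups, and Mxd4 lies between 11.38 and 11.74 in all Treg arrays and at 9.37 and 9.53 in conventional T cells.

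Max, the partner that MYC, MXD proteins, MNT and MGA share, was at 7.32, 6.14 and 6.21 in activated Treg, against 6.13, 6.22 and 6.45 in resting Treg and 7.22 and 7.18 in conventional T cells. Activated replicate 1 was at the level of the conventional T cells and the other 5 Treg arrays lay lower. Resting Treg minus conventional T cells was -0.94 ± 0.34 (limma adjusted p = 0.178), and without activated Treg replicate 1 the limma adjusted p was 0.0182. This was the only call gained in the 8 fits that each left out 1 array, where the difference ran from -1.03 to -0.87.

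Mxd1, which rises in several lineages as they differentiate, was at 7.35, 8.77 and 8.81 in activated Treg, against 7.97, 8.55 and 9.38 in resting Treg and 7.70 and 7.38 in conventional T cells. The resting Treg lay above the conventional T cells without overlap, at a difference of 1.09 ± 0.52 (limma adjusted p = 0.325). The activated Treg spread across both. For resting Treg minus conventional T cells the other Mxd1 probe sets gave 0.10 and 0.26.

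The other 5 members did not pass the threshold in any of the 3 comparisons. Mlx was at 6.88, 6.84 and 8.05 in activated Treg and 6.33, 7.32 and 7.51 in resting Treg. In conventional T cells it was at 8.10 and 7.86. Resting Treg minus conventional T cells was -0.93 ± 0.45, and the other Mlx probe set gave -0.96. For activated minus resting Treg the probe set used gave 0.20 and the other -0.86. Mga was at 9.05, 8.81 and 8.32 in activated Treg, against 9.11, 9.0 and 9.43 in resting Treg and 8.63 and 8.49 in conventional T cells. Its difference was 0.62 ± 0.24 for resting Treg minus conventional T cells, and other Mga probe sets gave values from -0.63 to 0.07.

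Mnt, a MAX partner expressed in proliferating and resting cells alike, lay between 8.89 and 9.37 on all 8 arrays. Mxi1 lay between 8.96 and 10.01, with differences of 0.05 to 0.32 among the groups. Its other probe set gave -0.63 to -0.13. Mycn, the MYC paralogue of neural and progenitor tissue, was low throughout, at 5.16 to 5.67, where unspiked bacterial control probe sets reached 4.02.

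For activated minus resting Treg 0 of the 10 members passed a limma adjusted p of 0.05, where 0.742% of all genes did and the unadjusted p was under 0.05 for 2 members, Myc and Mxd3, and for 11.5% of all genes. For resting Treg minus conventional T cells 2 of 10 passed (Mxd4 higher, Myc lower), where 5.51% of all genes did. For activated Treg minus conventional T cells 2 of 10 passed (Mxd3 and Mxd4, both higher), where 9.7% of all genes did. The 3 comparisons share their groups and are not separate evidence. Arrays of the groups did not overlap for 2 of 10 members between activated and resting Treg (13% of all genes), for 7 of 10 between resting Treg and conventional T cells (42% of all genes) and for 3 of 10 between activated Treg and conventional T cells (41.1% of all genes).

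Myc was also set against its Mxd antagonists in each array, as a difference of RNA signals. This difference leaves out Mnt, Mga and Max and measures no protein. The mean of Mxd1, Mxd3, Mxd4 and Mxi1 was subtracted from Myc, each gene taken relative to its mean in conventional T cells. The result was -1.35, -1.69 and -1.87 in activated Treg, against -2.55, -2.67 and -4.84 in resting Treg and -0.03 and 0.03 in conventional T cells. The 3 groups did not overlap, with the balance furthest toward the antagonists in resting Treg. In resting Treg both sides moved from the conventional level, Myc downward and Mxd4 upward. In activated Treg the Myc signal was near that of conventional T cells and the antagonists Mxd3 and Mxd4 were above it.

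Genes that MYC is known to induce were read beside Myc, from 3 lists (nucleolus, metabolism and growth, cell cycle). These lists were chosen with earlier results of these data known. Of 34 measured, 1 rose in activated Treg over resting Treg, where 0.742% of all genes passed. This was Ccnd2, the cyclin that opens G1, at 11.38, 11.44 and 11.51 in activated Treg, against 10.30, 9.72 and 10.14 in resting Treg (1.39 ± 0.18, limma adjusted p = 0.0192). All 3 activated arrays were higher. The differences of 27 of the 34 were positive, with a median of 0.14, against a median of 0.004 over all genes.

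For resting Treg minus conventional T cells 26 of the 34 differences were negative, with a median of -0.45. Of these 0 passed with limma and 7 had an unadjusted p under 0.05, as did 17.9% of all genes in either direction. The 2 of the 34 that did pass (5.51% of all genes did) were higher. Odc1, the rate-limiting enzyme of polyamine synthesis and a classic MYC target, was at 11.34, 11.64 and 12.33 in resting Treg, against 9.67 and 10.07 in conventional T cells (1.90 ± 0.32, limma adjusted p = 0.0126). Slc2a1, the glucose transporter GLUT1, was at 10.52, 10.43 and 10.67 in resting Treg, against 9.13 and 9.35 in conventional T cells (1.3 ± 0.18, limma adjusted p = 0.00496). So Odc1 and Slc2a1 were higher in the cells with the lower Myc signal.

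Activated Treg also had higher Odc1 (2.65 ± 0.32) and Slc2a1 (0.99 ± 0.18) than conventional T cells. Hk2, a hexokinase that commits glucose to glycolysis, rose by 2.40 ± 0.40. Cks1b, a cofactor of cyclin-dependent kinases and of SKP2, rose by 2.08 ± 0.41. With Ccnd2 (0.90 ± 0.20), 5 of the 34 rose and 0 fell, by limma at an adjusted p of 0.05, where 9.7% of all genes passed, with 4 lower at an unadjusted p under 0.05.

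Among 6 genes that MYC is known to repress, Ndrg1 rose in resting Treg over conventional T cells (1.69 ± 0.18, limma adjusted p = 0.00135). It was the only 1 of the 6 that passed, where 5.51% of all genes did. In activated Treg over conventional T cells 4 rose, the kinase inhibitors Cdkn1a (2.39), Cdkn2c (1.23) and Cdkn2b (0.60), and Ndrg1 (1.17). Gadd45a fell by 1.73, and 9.7% of all genes passed in either direction.

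Of the 4 genes around MLX, Arrdc4, an arrestin-like brake on glucose uptake that MLX complexes induce, rose in both Treg groups over conventional T cells. The rise was 1.76 ± 0.30 in activated (limma adjusted p = 0.00863) and 1.92 ± 0.30 in resting Treg (limma adjusted p = 0.00892). Its signal was 5.93, 6.87 and 6.78 in activated Treg and 6.48, 6.55 and 7.03 in resting Treg, against 4.8 and 4.73 in conventional T cells. Arrdc4 was the only 1 of the 4 that passed, where 9.7% of all genes did for activated and 5.51% for resting Treg. Of the 4 differences 1 was positive in activated and 3 in resting Treg. Txnip, a further MLX target, was at 12.68, 12.35 and 11.52 in activated and 12.52, 12.28 and 12.48 in resting Treg. In conventional T cells it was at 12.57 and 12.46.

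Of 8 measured genes that set the stability of the MYC protein, 0 passed with limma for activated minus resting Treg (4 at an unadjusted p under 0.05), 2 for resting Treg minus conventional T cells, where 5.51% of all genes passed, and 3 for activated Treg minus conventional T cells, where 9.7% did. Usp28, a deubiquitinase that removes ubiquitin from MYC, was at 8.51, 8.28 and 8.95 in activated Treg and 9.26, 9.61 and 8.76 in resting Treg, against 10.41 and 10.42 in conventional T cells. It fell in both Treg groups, by 1.83 ± 0.28 in activated Treg (limma adjusted p = 0.00537) and by 1.21 ± 0.28 in resting Treg (limma adjusted p = 0.0469). Fbxw7, the ubiquitin ligase subunit that marks MYC for degradation, rose in activated Treg over conventional T cells by 1.01 ± 0.25, as did Cip2a, an inhibitor of the phosphatase that destabilises MYC, by 2.56 ± 0.39. Pim2, a kinase reported to stabilise MYC, was at 5.83, 6.57 and 5.97 in resting Treg, against 8.14 and 8.12 in conventional T cells, and fell by 2.01 ± 0.33 (limma adjusted p = 0.0111).

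Genes whose pattern lay closest to Myc were ranked by the root mean square difference of their centred log2 signals over the 8 arrays. The nearest 5 of 18193 were Ckap5 (0.484), Sec24d (0.581), Spaca1 (0.586), Afp (0.605) and Sdhaf3 (0.621). Ckap5, a microtubule polymerase, was at 8.03, 7.91 and 7.78 in activated Treg, against 6.58, 6.94 and 5.83 in resting Treg and 8.22 and 7.72 in conventional T cells, with its lowest value on the same resting array as Myc. Sec24d (5.36), Spaca1 (4.02), Afp (3.78) and Sdhaf3 (5.24) also had their lowest value on that array, and the ranking was not repeated without it. Among the members Max ranked 1115 and Mxd4 ranked 17634.

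RNA quality and other cells differed between these arrays. The 3' minus 5' signal of Actb, which grows as RNA or its copying is cut short, was 5.87, 6.17 and 2.31 in activated Treg, against 5.90, 2.5 and 2.67 in resting Treg and 1.24 and 1.54 in conventional T cells. Among arrays of high Actb difference Myc was 8.31 and 8.09 in activated Treg, against 6.63 on a single resting array. Among those of low difference it was 8.08 in activated Treg, against 6.78 and 4.8 in resting Treg. Both conventional arrays lay below every Treg array in the Actb difference. RNA quality and cell type thus changed together there, and the part of RNA quality in the Treg differences from conventional T cells was not tested. Of 6 B cell markers 3 rose in resting Treg over conventional T cells, led by Cd79b (2.85), where 5.51% of all genes passed. The mean signal of the 6 was 6.39 to 6.97 in activated Treg and 6.58 to 6.81 in resting Treg. In conventional T cells it was 5.70 to 5.79. Klrd1, a receptor of NK and CD8 cells, averaged 5.34 in activated Treg and 7.30 in resting Treg, against 12.03 in conventional T cells, but the other 4 markers of its list did not pass, with Cd8a at 5.31 in activated Treg and 5.20 in resting Treg, against 5.20 in conventional T cells. Of 6 markers of antigen-presenting cells 5 were on the higher side in resting Treg over conventional T cells and 0 passed with limma (3 at an unadjusted p under 0.05). Their mean signal was 6.09 to 6.99 in activated Treg and 5.89 to 7.49 in resting Treg, against 5.23 to 5.26 in conventional T cells, and H2-Aa averaged 9.01 in activated Treg and 9.07 in resting Treg, against 6.44 in conventional T cells. Of 10 myeloid markers 6 were on the higher side in activated over resting Treg and 0 passed with limma (0 at an unadjusted p under 0.05). Their mean signal was 5.68 to 7.64 in activated Treg and 5.43 to 6.24 in resting Treg, against 5.51 to 5.55 in conventional T cells, and S100a8 averaged 7.21 in activated Treg and 5.17 in resting Treg. The part of other cells in the Mxd4, Mxd3 and Myc differences was not tested.

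In the ligand experiment Mxd4 was the member that changed. With Sema4a-Ig in WT Treg it was higher in 8 of 8 pairs, by 0.16, 1.03, 1.01, 0.07, 0.21, 0.64, 0.77 and 0.52 in pairs 1 to 8. In KO Treg the differences were 0.07, 0.36, 0.36, 0.12, 0.20, 0.00, 0.09 and 0.25. Of the WT pairs 5 lay above every KO pair and the other 3 lay among them. Mean levels were 7.78 with Sema4a-Ig and 7.59 with IgG1 in KO, and 7.96 with Sema4a-Ig and 7.41 with IgG1 in WT. The effect was 0.18 ± 0.10 in KO (limma adjusted p = 0.521) and 0.55 ± 0.10 in WT, a 1.46-fold rise with a limma adjusted p of 0.00299. Without WT pair 2, the pair with the conflicting genotype label, the WT effect was 0.48 (limma adjusted p = 0.0112).

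The test of the difference between genotypes did not pass. The Mxd4 effect in KO minus that in WT was -0.37 ± 0.14 (95% interval -0.66 to -0.08), with an unadjusted p of 0.0147 and a limma adjusted p of 0.791. The 3 other Mxd4 probe sets gave 0.07 to 0.29 in WT and -0.15 to 0.07 in KO. With the median over its probe sets the WT effect was 0.22 (limma adjusted p = 0.237), so this call too belongs to the brightest probe set.

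**Figure D2:**
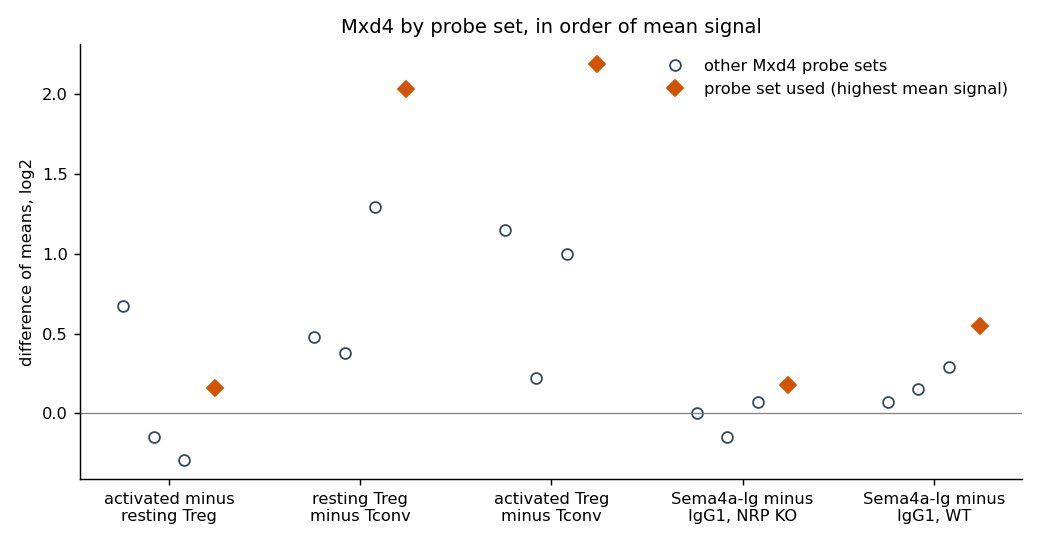
Difference of means (vertical axis, log2) for the 4 probe sets of Mxd4 in 5 comparisons; the diamond is the probe set used and circles are the others, ordered from left to right by mean signal. The probe set used gave the largest value in 4 of the 5 comparisons, such as 2.03 against 0.38 to 1.29 for resting Treg minus conventional T cells.

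Myc itself did not pass the threshold under Sema4a-Ig. Its pair differences were 0.43, -0.17, -0.07, -0.14, -0.02, -0.14, -0.06 and -0.04 in KO, against -0.20, -0.09, 0.12, 0.01, 0.04, -0.07, -0.27 and -0.20 in WT. Pair 1 of KO stood apart from the other 7, which were slightly negative, and WT pairs lay on both sides of 0. The effect was -0.03 ± 0.07 in KO (95% interval -0.18 to 0.13, limma adjusted p = 0.925) and -0.08 ± 0.07 in WT (95% interval -0.24 to 0.07, limma adjusted p = 0.585). The difference between genotypes was 0.06 ± 0.10 (95% interval -0.16 to 0.27). Mean levels were 10.23 with Sema4a-Ig and 10.26 with IgG1 in KO, and 10.20 with Sema4a-Ig and 10.29 with IgG1 in WT.

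The other antagonists had smaller effects than Mxd4. Mnt ranged from -0.18 to 0.23 in KO pairs (median -0.04) and from -0.01 to 0.49 in WT pairs (median 0.13), and 7 of 8 WT pairs were positive. Its effect was -0.01 ± 0.08 in KO (limma adjusted p = 0.983) and 0.22 ± 0.08 in WT (limma adjusted p = 0.0871). With genes below a mean log2 signal of 4 left out the WT value was the same and its limma adjusted p was 0.0435, while the second, dimmer Mnt probe set gave -0.31.

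Mxd1 ranged from -0.13 to 0.41 in KO pairs (median -0.07) and from -0.18 to 0.46 in WT pairs (median 0.15). In KO 7 of 8 pairs were negative and in WT 7 of 8 were positive, with effects of -0.02 ± 0.08 in KO and 0.18 ± 0.08 in WT (limma adjusted p = 0.195). Mxi1 ranged from -0.25 to 0.97 in KO (median -0.02) and from -0.02 to 0.36 in WT (median 0.12), with a WT effect of 0.16 ± 0.10 (limma adjusted p = 0.379).

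Mxd3, which was higher in activated Treg, ranged from -0.48 to 0.39 in KO and from -0.36 to 0.43 in WT, with effects of -0.01 ± 0.10 in KO and 0.07 ± 0.10 in WT. Mlx (-0.16 ± 0.12) and Mga (0.03 ± 0.09) did not pass in WT either. Mycn differed by 0.44 ± 0.13 in KO (8 of 8 pairs positive, limma adjusted p = 0.378) and 0.20 ± 0.13 in WT (limma adjusted p = 0.436). Its level of 4.0 to 4.44 lies close to the highest nonspecific control at 3.95, and its other probe sets gave -0.04 and 0.10 in KO.

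**Figure D3:**
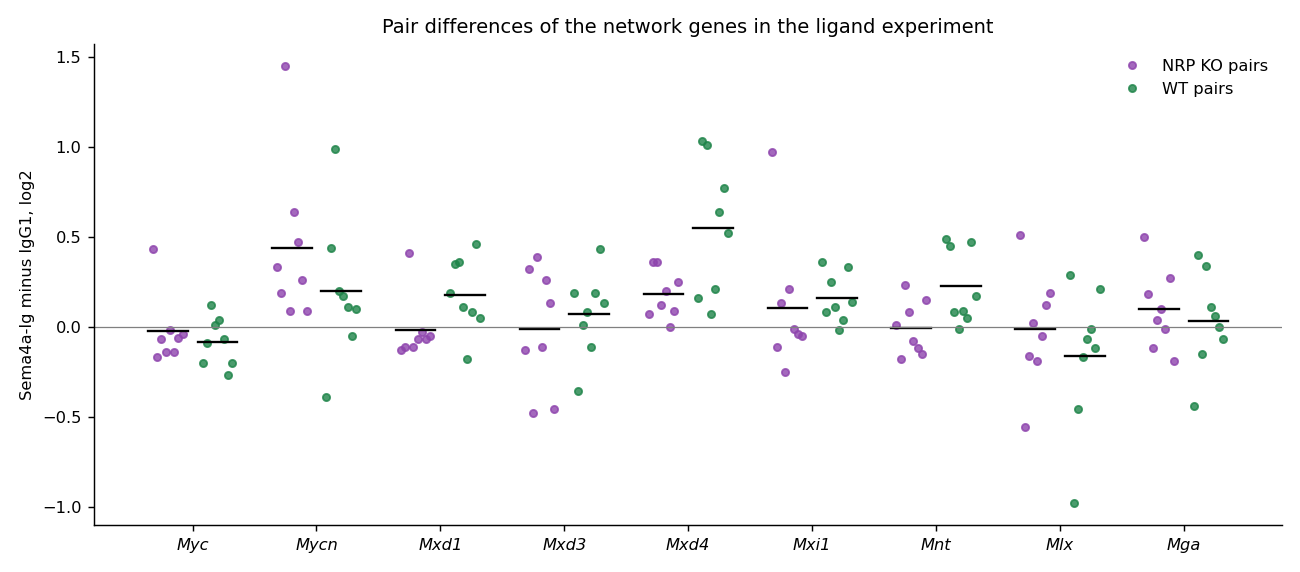
Sema4a-Ig minus IgG1 difference (vertical axis, log2) of the 9 measured network genes, for KO pairs (purple) and WT pairs (green), 8 of each; points are pairs and lines are means. Mxd4 in WT has the highest mean (0.55) and all of its WT pairs are above 0, whereas Myc pairs lie around 0 in both genotypes.

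In WT 1 of 9 members passed an adjusted p of 0.05, where 5.79% of all genes did, 498 higher and 492 lower. In KO 0 of 9 passed with limma, where 0% of all genes did, and the unadjusted p was under 0.05 for 1 member (Mycn) and for 1787 genes. For the difference between genotypes 0 of 9 passed with limma, where 0% of all genes did, and the unadjusted p was under 0.05 for 2 members (Mxd4 and Mnt) and for 1015 genes.

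Myc minus the mean of Mxd1, Mxd3, Mxd4 and Mxi1 was also followed by pair. It averaged -0.09 ± 0.16 in KO (SD, 8 pairs) and -0.32 ± 0.25 in WT (SD, 8 pairs). In KO it ran from -0.28 to 0.23 and was negative in 6 of 8 pairs, and in WT from -0.76 to 0.06 and negative in 7 of 8 pairs. The ranges overlap. The antagonist mean ran from -0.08 to 0.20 in KO (mean 0.06) and from -0.02 to 0.50 in WT (mean 0.24), and Mxd4 had the largest share in the WT mean.

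Some markers of myeloid cells moved with Mxd4 in WT. Of 10 myeloid markers 3 rose with Sema4a-Ig in WT, Lyz2 (0.81 ± 0.15), Tyrobp (0.39 ± 0.11) and Ctss (0.37 ± 0.08). Of all genes 2.91% rose, and of the 10 markers 8 had positive and 2 negative differences. The mean difference of the 10 ran from -0.30 to 0.48 in KO pairs and from -0.15 to 0.61 in WT pairs. The 5 WT pairs with the largest Mxd4 differences had marker differences of 0.31, 0.61, 0.23, 0.52 and 0.39, and the other 3 had 0.01, -0.15 and 0.03. KO pair 4, with a marker difference of 0.48, had an Mxd4 difference of 0.12. With the marker difference in the fit the Mxd4 effect in WT was 0.39 (limma adjusted p = 0.185), and no gene of the whole array passed. The mean signal of the 10 markers was 5.31 to 5.70 with Sema4a-Ig and 5.22 to 5.61 with IgG1 in KO, and 5.38 to 5.76 with Sema4a-Ig and 5.15 to 5.53 with IgG1 in WT, with Cd14 and Itgam at or below the highest nonspecific control.

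**Figure D4:**
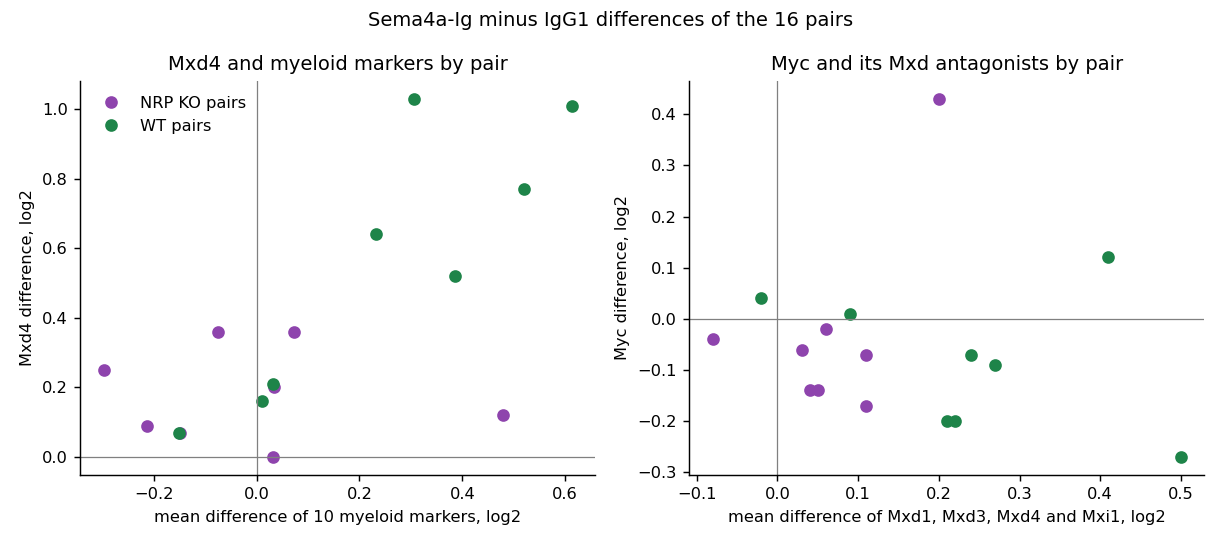
Differences between Sema4a-Ig and IgG1 of the 16 pairs (log2), KO in purple and WT in green. On the left Mxd4 is plotted against the mean of 10 myeloid markers, with the 5 WT pairs of high Mxd4 (0.52 to 1.03) at the right; on the right Myc is plotted against the mean of its antagonists, which is above 0 in 7 of 8 pairs of each genotype.

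Downstream of the network, some genes that MYC is known to induce fell with Sema4a-Ig in WT. Of 30 measured genes on the 3 lists 10 fell and 0 rose, by limma at an adjusted p of 0.05. Of all genes 5.79% passed, with 2.88% lower and 2.91% higher. Of the 30 differences 28 were negative, against 53.9% of all genes. The median of the 30 was -0.28, against -0.014 over all genes. The lists were chosen with earlier results of these data known, so the counts set beside these shares are no test of the lists. In KO 26 of 30 differences were negative with a median of -0.17, and 0 passed, by limma at an adjusted p of 0.05, with 11 under 0.05 unadjusted. For the difference between genotypes 0 of 30 passed, with a median of 0.14 and 4 under 0.05 unadjusted. So a weaker effect in KO is not shown.

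The nucleolar list supplied 4 of the 10. Polr1b, a core subunit of RNA polymerase I, ranged from -0.95 to 0.27 in KO pairs (median 0.00) and from -1.05 to -0.25 in WT pairs (median -0.59). All 8 WT pairs were negative and 4 of 8 KO pairs were. Its effect was -0.15 ± 0.11 in KO and -0.60 ± 0.11 in WT (limma adjusted p = 0.00434). Pa2g4, Nolc1 and Bop1, which act in ribosome assembly and growth, fell in WT by 0.43, 0.41 and 0.38.

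The metabolic list supplied 5. Srm, the spermidine synthase, ranged from -1.05 to 0.05 in KO pairs and from -1.09 to -0.09 in WT pairs, with effects of -0.33 ± 0.12 in KO (limma adjusted p = 0.396) and -0.53 ± 0.12 in WT (limma adjusted p = 0.0147). Odc1, which precedes it in polyamine synthesis, differed by -0.24 ± 0.11 in KO and -0.41 ± 0.11 in WT. Shmt2, the mitochondrial enzyme of serine breakdown, fell by 0.48, Hk2 by 0.45 and Slc7a5, the large neutral amino acid transporter, by 0.40 in WT. All 13 measured metabolic genes had negative differences in both genotypes, Ldha among them (-0.10 ± 0.07 in KO and -0.18 ± 0.07 in WT).

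In the cell cycle list Skp2, the ubiquitin ligase subunit that removes p27, fell by 0.35 in WT (limma adjusted p = 0.0154). Cdkn1b, which encodes p27 and is repressed by MYC, rose. Its pairs ranged from 0.04 to 0.59 in KO and from 0.04 to 1.03 in WT, all 16 positive, with effects of 0.25 ± 0.09 in KO (limma adjusted p = 0.396) and 0.47 ± 0.09 in WT (limma adjusted p = 0.00494). Ndrg1, a further repressed gene and stress-response gene, differed by 0.05 ± 0.10 in KO and rose by 0.51 ± 0.10 in WT (limma adjusted p = 0.0058). The other 4 of the 6 repressed genes did not pass in WT, where 5.79% of all genes did. Of the 6 differences 3 were positive and 3 negative, with a median of 0.08. Cdkn1a (-0.28) and Gadd45a (-0.29) were on the lower side. By limma 1 of the 6 was lower at an unadjusted p under 0.05.

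Txnip, the thioredoxin-binding brake on glucose uptake that MLX complexes induce, had the largest change among the genes of the 9 pathway lists in WT. It ranged from -0.06 to 0.72 in KO pairs (median 0.25) and from 0.21 to 1.5 in WT pairs (median 0.74). All 8 WT pairs were positive and 6 of 8 KO pairs were. Its effect was 0.28 ± 0.12 in KO (limma adjusted p = 0.463) and 0.77 ± 0.12 in WT (limma adjusted p = 0.000979). Arrdc4, the second such target, did not pass.

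Among coactivators of MYC the ATPases Ruvbl2 and Ruvbl1 fell by 0.41 and 0.30 in WT, 2 of 6 measured, where 5.79% of all genes passed. Of the 6 corepressor genes 0 passed with limma in either genotype, with 1 in KO and 3 in WT under an unadjusted p of 0.05, all lower. Of the 7 genes of MYC protein stability 0 passed, with 2 in each genotype under that unadjusted p, all lower.

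**Figure D5:**
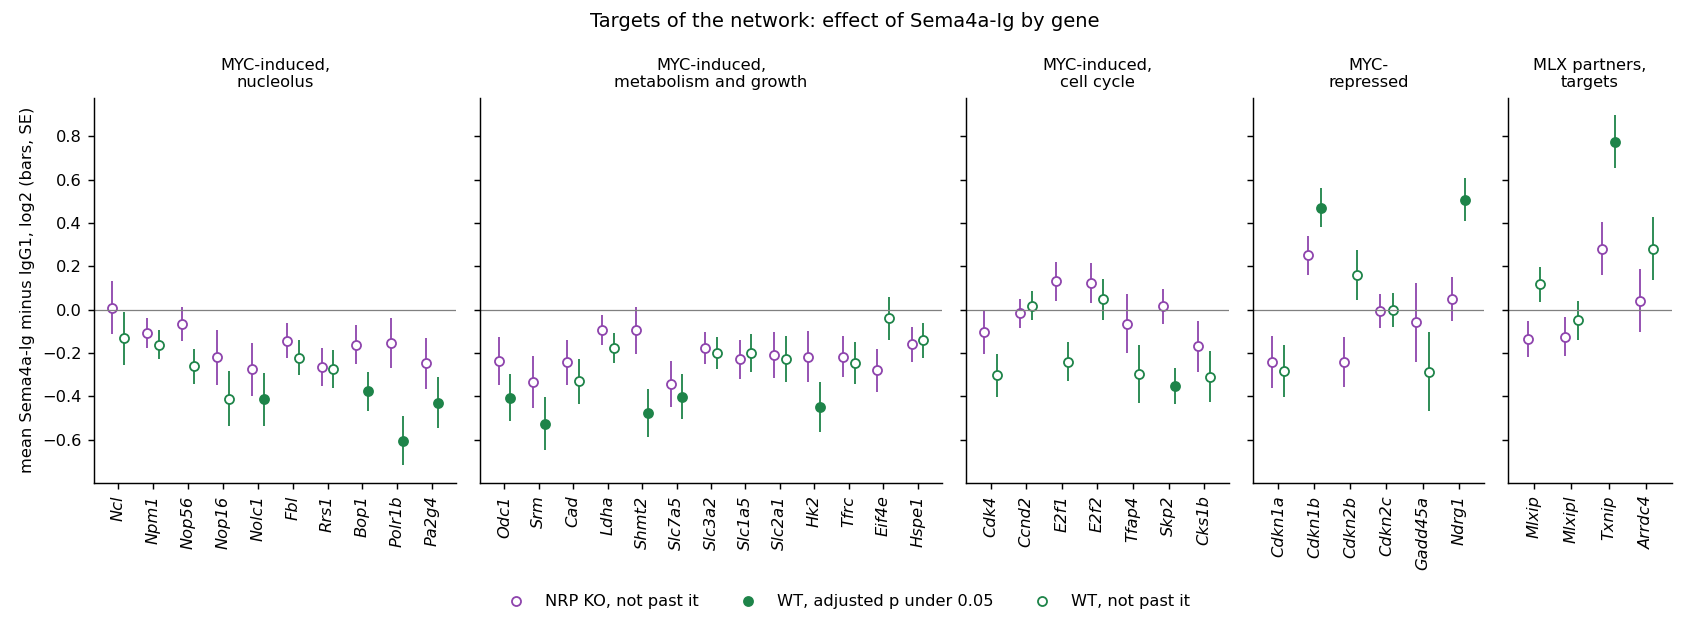
Mean Sema4a-Ig minus IgG1 difference (vertical axis, log2; bars, SE of the fit over 8 pairs) for each measured gene of the 3 MYC-induced lists, the MYC-repressed list and the list of MLX partners and targets, with KO (purple) left of WT (green). Filled points passed an adjusted p of 0.05, and all of these are WT: 10 MYC-induced genes below 0, and Cdkn1b, Ndrg1 and Txnip above 0.

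The count of MYC-induced genes that fell in WT rested in part on single pairs. It was 10 with all pairs, 2 without WT pair 3 and 5 without WT pair 7, the pairs with the highest myeloid marker differences, and 7 to 11 without any other WT pair. Calls over the whole array moved too, from 990 genes with all pairs to between 258 and 1069 in these 8 fits. Without WT pair 3 the median of the 30 genes was -0.26 and 29 were negative. With the myeloid marker difference in the fit 0 of 30 passed, 29 were negative and the median was -0.25, and 0 genes of the whole array passed. With the Actb difference in the fit 9 passed, among 1020 genes of the whole array.

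Genes closest to Myc over the 16 pair differences were 4833439L19Rik (root mean square difference 0.132), Ptger4 (0.133), Zfp37 (0.136), Rpl27a (0.139) and Dmac1 (0.139), out of 17096. The differences were not centred and those of Myc were small, so genes that hardly changed rank near it. The WT effects of the 5 ran from -0.08 to 0.03 and none passed. Ptger4, a prostaglandin E2 receptor, is the nearest of them with a role known in T cells, and its WT effect was -0.03 ± 0.07. In the sorted cells Ptger4 was 1.13 ± 0.20 higher in resting Treg than in conventional T cells (limma adjusted p = 0.0136), where Myc was lower. None of the 5 was among the nearest to Myc in the sorted cells.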

How the data were processed

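The authors deposited log2 signals per probe set, made with RMA and Partek 6.6 per the submitters' processing notes. Later steps, if any, were not given in the sources used here. RNA of the sorted cells (1 µg) was labelled by a 2-cycle protocol and that of the ligand experiment, taken up in TriZOL, by a 3' IVT Express kit, per the labels. The experiments used different array types and were analysed apart, without further normalization. Probe sets were named through the platform annotation, with symbols updated from RefSeq (GRCm38.p6). In the sorted cells 34958 of 45101 probe sets had 1 gene, 932 several and 9211 were unnamed, and in the ligand experiment 28898 of 45141 had 1 gene, 551 several and 15692 were unnamed. The number of arrays limits the precision.

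Tests were made with limma 3.58.1 in R 4.3.3, with p-values adjusted by Benjamini-Hochberg over all genes and a threshold of 0.05. The sorted cells were fitted as 3 group means (5 residual degrees of freedom). In the ligand experiment the pairs come from the titles, where the code of each Sema4a-Ig array follows that of its IgG1 array, and from the deposited log2 values, whose pair means are identical. A mean difference per genotype was fitted to the 16 pair differences (14 residual degrees of freedom). An SE is that of the fit. The main fits were tried on simulated data for activated minus resting Treg, Sema4a-Ig in WT and the difference between genotypes. The other comparisons and the alternative fits were not.

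The members and gene lists were chosen with earlier results of these data known. All members were named, with up to 4 genes of each list past the threshold and the 5 genes nearest to Myc. Cdkn2b, Slc7a5 and Ldha were named after their values were seen. Some genes that did not pass were also named outside this rule, such as Cd8a, H2-Aa, S100a8 and Txnip in the sorted cells. Cdkn1a and Gadd45a in the WT ligand comparison were named in the same way. Alternatives covered the probe set, the filter on low signals, the prior, array weights, centring, the samples fitted, Actb and myeloid covariates, the pairing and each array or pair left out.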

Additional observations from a re-analysis of the deposited data

Results flagged for a closer look

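In 4 members 1 KO pair lay far from the other 7 in its Sema4a-Ig minus IgG1 difference, by Dixon's test at the 95% level, which chance meets in about 1 in 20 groups. KO pair 1 was the highest of 8 for Myc (0.43, with the next pair at -0.02) and for Mxi1 (0.97, with the next at 0.21). KO pair 3 was the highest of 8 for Mycn (1.45, with the next at 0.64) and for Mxd1 (0.41, with the next at -0.03). Without KO pair 1 the Myc effect in KO was -0.09, and it did not pass the threshold with or without it. No WT pair and no group of the sorted cells was marked in this way, and groups of 3 arrays or fewer were not tested.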

How the results depend on the processing

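The deposited pairing of the ligand arrays decided several counts. With no replicate block, which takes the 32 arrays as independent, 3 members passed in WT (Mxd4, Mnt and Mxd1; 4417 genes in all, against 990), 1 in KO (Mycn; 1734 genes, against 0) and 1 for the difference between genotypes (Mxd4; 530 genes, against 0), because that fit counts each pair more than once. With array weights 2 members passed for activated minus resting Treg, Myc (1.77) and Mxd3 (1.08), with 957 genes in all against 135, 5 for resting Treg minus conventional T cells (3005 genes against 1003) and 5 for activated Treg minus conventional T cells (5894 genes against 1765). With the median of a gene's probe sets 1 member passed for resting Treg minus conventional T cells, 0 for activated Treg minus conventional T cells and 0 for Sema4a-Ig in WT. With the probe set of largest SD 0 passed in WT, with genes below a mean signal of 4 left out 2 passed (1528 genes), and with the myeloid marker difference in the fit 0 members, 0 MYC-induced genes and 0 genes in all passed; the cause of each was not tested. In the last of these fits the limma adjusted p of Mxd4 was 0.185, and over the 26 alternatives for Mxd4 in WT its adjusted p ran from 6.49e-07 to 0.666.

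Leaving out 1 array or pair at a time gave 0 to 1 members for activated minus resting Treg, 1 to 2 for resting Treg minus conventional T cells, 1 to 3 for activated Treg minus conventional T cells, 1 in each fit for Sema4a-Ig in WT, and 2 to 11 MYC-induced genes lower in WT. The alternatives for the MYC-induced genes were chosen after seeing the data. Over these fits the genes called numbered 12 to 168, 242 to 1208, 433 to 2262 and 258 to 1328 in the same 4 comparisons. With only the compared groups in the fit 36 genes passed for activated minus resting Treg and 484 for Sema4a-Ig in WT, and with the Actb covariate 318 passed for activated minus resting Treg and 1633 for resting Treg minus conventional T cells. A minimum fold left 266 genes in WT, the trended and robust prior 608, the largest-SD probe set 621, and 76 and 79 genes passed for activated minus resting Treg with the largest-SD and the median probe sets. Of 1173 alternative values of single members 1067 kept their direction and side of the threshold, 12 lost a call, 19 gained one, and 0 called values changed sign. In a further 75 the sign changed with neither value called.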
